A study of Mus musculus with 18 samples.

Results

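Whether a green tea extract changed the same genes in fat and in liver was asked by setting the change in one tissue against the change in the other, gene by gene. The adipose change was the mean of mice fed a high-fat diet with 0.25% green tea ethanol extract (GT) minus that of mice fed the high-fat diet without it (HFD), and the liver change was formed in the same way. The tissue difference was the adipose change minus the liver change. It was taken over 12 of the study's 18 libraries, 3 each of GT epididymal adipose tissue, HFD epididymal adipose tissue, GT liver and HFD liver. All came from male C57BL/6J mice that were put on the diets at 5 weeks of age and studied at 17 weeks, so both groups had eaten the high-fat diet for 12 weeks. The normal diet, also part of the study, takes no part in the comparison. The labels do not say that libraries came from separate mice, and the p-values therefore speak only of how these samples vary, technical variation included.

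Of 23474 genes in the deposited table, 9663 reached 1 FPKM (fragments per kilobase of transcript, scaled to the mapped fragments) in at least 3 of the 6 libraries of each tissue and were tested. Another 2723 genes reached it in adipose tissue alone, 742 in liver alone and 10346 in neither, so genes that only 1 of the tissues uses have no tissue difference here. Values were tested with limma as log2(FPKM + 1), and adjusted p is by the Benjamini-Hochberg method over all 9663 genes with a threshold of 0.05. The fit takes 1 spread for each gene over all 4 groups, so its adipose change and its liver change have the same SE. A positive tissue difference means that the adipose change lay above the liver change. Changes and differences are given on this log2 scale, which understates the change of genes with low FPKM.

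Epididymal fat stores triglyceride in adipocytes and, in obese mice, gathers macrophages that take up lipid from dying cells. Liver takes up fatty acids released by fat, stores or burns them, and exports the rest as lipoproteins. The hormone FGF21, the stress-induced cytokine GDF15 and many secreted proteins connect these organs. The 2 tissues share much of the machinery of lipid droplets, endoplasmic reticulum folding and mitochondria, which allows the same gene to be read in both.

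Marker genes fitted the labelled tissues, with exceptions. Of the 6 adipocyte markers, Adipoq, Lep, Plin1 and Retn stood at no more than 1.4 FPKM in every liver library, while Cidec reached 115 FPKM and Lipe 13 FPKM there. Of the 6 hepatocyte markers, Ttr, Serpina1c and Fgb stood at no more than 0.655 FPKM in every adipose library, Apoa2 reached 4.94 FPKM and Alb 5.53 FPKM there, and Cyp2e1 is expressed in both tissues. Alb, the albumin gene, was listed at 0 in liver HFD 3 alone among the liver libraries. Foreign transcripts were seen in a few libraries: testis markers summed to 2061 FPKM in adipose HFD 1 and to at most 76.8 FPKM in the other adipose libraries, and the epididymal gene Crisp1 made up nearly all of a marker sum of 1172 FPKM in adipose HFD 2. Skeletal muscle markers summed to 44.7 FPKM in liver GT 3, 117 FPKM in liver HFD 2 and 24.4 FPKM in liver HFD 3, and to at most 0.945 FPKM in the other liver libraries. FPKM totals ran from 527904 to 555804 in adipose tissue and from 680168 to 930139 in liver. Read numbers were not analysed here.

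The tissue difference passed the test in 477 of 9663 genes (4.94%), of which 313 were positive (3.24%) and 164 negative (1.7%). In the same fit the extract changed 336 genes in adipose tissue (3.48%), 138 up (1.43%) and 198 down (2.05%). In liver it changed 890 genes (9.21%), 192 up (1.99%) and 698 down (7.22%). Which tissue had more calls depended on the fit: each tissue fitted on its own 6 libraries gave 770 in adipose tissue and 168 in liver, array weights gave 1361 and 347, and no filter on low values gave 1135 and 621. Without both liver HFD 2 and liver GT 3 the counts were 1174 in adipose tissue and 730 in liver. The median within-group SD of the log2 values was 0.138 in GT and 0.148 in HFD adipose tissue, against 0.244 in GT and 0.177 in HFD liver. The reported fit gives both tissues the same spread, and the part of these SDs in the counts was not tested. Over all 9663 genes the changes in the 2 tissues were close to unrelated, with a Pearson r of 0.0565 across genes and the same sign in 48.6% of them. Genes are not independent replicates, so this is a description. When FPKM were first scaled to equal totals, 307 genes passed and 41% of them were positive, against 65.6% with the values as deposited. That scaling moved the median liver change of all genes to 0.08, against -0.04 as deposited, and the median tissue difference to -0.21, against -0.05.

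The 477 genes fell into patterns. The extract changed 87 of them in adipose tissue and not in liver at the threshold, 242 in liver and not in adipose tissue, and 28 in both tissues in opposite directions. A further 3 changed in the same direction by different amounts, and 117 passed in the difference alone. The sign of the estimate was opposite in the 2 tissues for 446 of the 477 genes, among them 80 of the 87 and 221 of the 242. The choice of genes by the difference favours opposite signs, which 51.4% of all tested genes had, so these counts describe the selection. A separate 45 genes changed in the same direction in both tissues with no difference at the threshold.

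**Figure D1:**
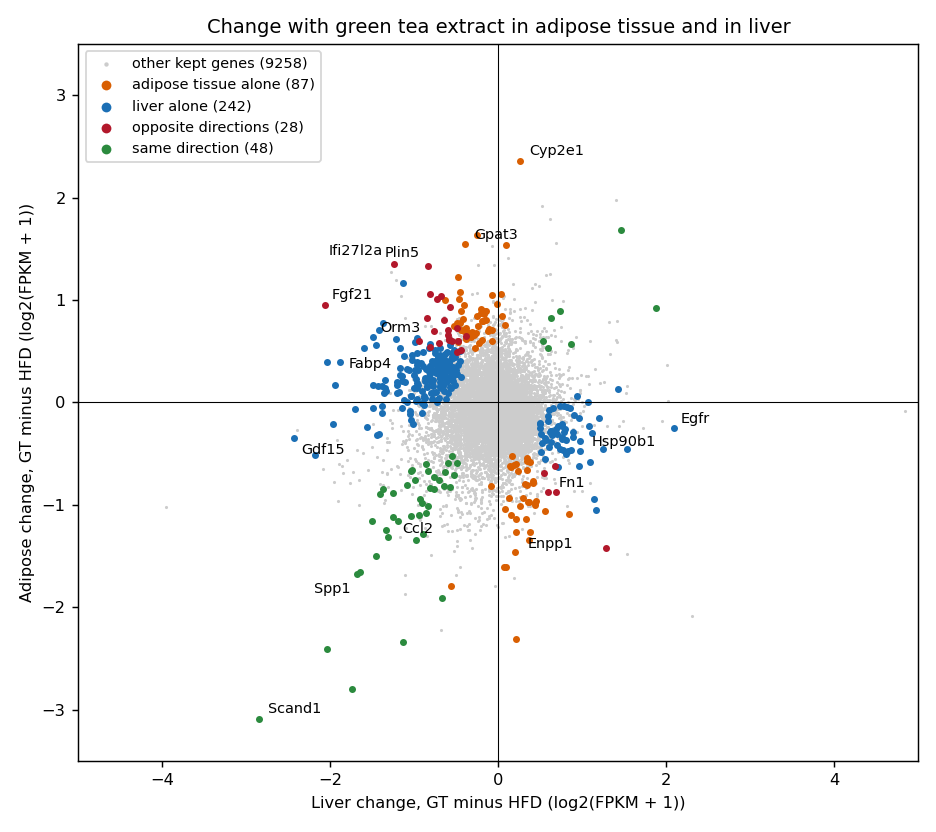
Each of 9663 genes by its liver change (x axis) and its adipose change (y axis), GT minus HFD on the log2(FPKM + 1) scale, coloured by the pattern it was assigned to. Genes of opposite directions fill the upper left and lower right corners, where Fgf21 lies farthest out at 0.96 in adipose tissue and -2.07 in liver, and genes of the same direction run along the diagonal with Scand1 at its lower end.

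The result rests on small groups, and single libraries moved it. With each library left out in turn, the count of genes in the tissue difference ran from 123 without adipose GT 2 to 1407 without liver GT 3. It was 129 without adipose HFD 2, 151 without adipose HFD 3, 187 without adipose GT 3, 158 without liver HFD 2, 287 without liver GT 2, and between 326 and 457 without any 1 of the other libraries. Of the 477 genes, 110 passed in all of these fits: 17 of adipose tissue alone, 65 of liver alone, 27 of opposite directions and 1 of the same direction with different sizes. Without both adipose HFD 1 and adipose HFD 2, the libraries with testis or epididymis transcripts, 1 gene passed, Fgf21, with 1 adipose HFD library left in the fit. Without both liver HFD 2 and liver GT 3, which had the largest muscle sums, 791 passed. Fgf21 was also the 1 gene that passed when all 18 libraries entered the fit.

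Of the 28 genes of opposite directions, 23 were higher in GT adipose tissue and lower in GT liver than in HFD, and 5 were the reverse. The GT and HFD libraries did not overlap in either tissue for any of them, which passing in both tissues favours, against 9.91% of all tested genes. Leaving out 1 library at a time kept the tissue difference of 27 of the 28, but the separate calls in both tissues were lost for many: the number of genes of opposite directions then ran from 0 without adipose GT 2 to 100 without liver GT 3. It was also 1 without adipose GT 3, 2 without adipose HFD 2, 1 without adipose HFD 3, 6 without liver HFD 2, between 12 and 31 without any 1 of the others, and 10 with equal FPKM totals.

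Fgf21 encodes a hormone that liver releases in fasting and under amino acid or protein-folding stress, and that adipocytes can make and respond to. It stood at 2.18, 2.35 and 2.96 FPKM in GT adipose tissue, against 1.05, 0.669 and 0.694 FPKM in HFD adipose tissue. In liver it stood at 3.82, 2.97 and 5.06 FPKM in GT, against 15.2, 22.0 and 21.9 FPKM in HFD. Every GT library lay above every HFD library in fat and below every HFD library in liver. The changes were 0.96 ± 0.19 (SE) in adipose tissue and -2.07 ± 0.19 in liver, and the tissue difference was 3.02 ± 0.26 (limma, adjusted p = 0.000287). The difference passed under each alternative setting in which the gene was tested, with values from 2.58 to 3.84.

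Trib3 encodes a pseudokinase that the stress-induced factors ATF4 and CHOP switch on, as they do Fgf21. It stood at 6.72, 7.66 and 6.38 FPKM in GT adipose tissue, against 4.69, 4.06 and 4.59 FPKM in HFD adipose tissue, and at 3.51, 4.10 and 3.34 FPKM in GT liver, against 6.74, 7.89 and 6.96 FPKM in HFD liver. The groups were apart in both tissues, and the difference was 1.36 ± 0.18 (limma, adjusted p = 0.00485). The upstream sequences of these genes are shown because both moved in opposite directions and both are known targets of ATF4, whose composite site has the core TGATGNAAT. Each run is the 250 bases before the RefSeq start site on GRCm38.p6, written 5′ to 3′ on the gene's strand, with matches to TGATGNAAT or to the E-box CACGTG, on either strand, in capitals. Fgf21 is at chr7:45615491-45615740 on the minus strand and Trib3 at chr2:152344061-152344310 on the minus strand.
Fgf21: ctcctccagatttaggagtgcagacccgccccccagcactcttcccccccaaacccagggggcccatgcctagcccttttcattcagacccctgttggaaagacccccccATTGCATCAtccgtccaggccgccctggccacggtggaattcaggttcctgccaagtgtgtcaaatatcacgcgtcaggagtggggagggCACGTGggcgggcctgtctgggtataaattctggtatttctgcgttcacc
Trib3: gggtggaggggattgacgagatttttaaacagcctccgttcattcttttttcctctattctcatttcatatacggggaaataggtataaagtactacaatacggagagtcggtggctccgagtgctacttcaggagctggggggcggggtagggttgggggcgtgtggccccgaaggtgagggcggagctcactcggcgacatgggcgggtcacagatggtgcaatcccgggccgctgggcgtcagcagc

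Fgf21 held ATTGCATCA, the reverse complement of the ATF4 core, starting 140 bases before the start site, and CACGTG starting 50 bases before it. Trib3 held neither in this window, which says only that these letters are not in it. Of 32851 RefSeq promoters cut to the same window, 0.816% held TGATGNAAT and 6.02% held CACGTG, and among 7634 tested genes with a promoter 0.485% and 10.5% did. A promoter was listed for 19 of the 28 genes of opposite directions, and Fgf21 was the only one of these 19 with either match. A match is a description of the letters and not of binding.

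Lipid droplet and nuclear receptor genes were also among those higher in fat and lower in liver. Plin5, a perilipin that coats lipid droplets and ties them to mitochondria, stood at 13.2, 17.6 and 21.8 FPKM in GT adipose tissue, against 6.63, 6.00 and 6.10 FPKM in HFD adipose tissue. Its liver values were 30.0, 26.0 and 19.1 FPKM in GT, against 50.3, 37.8 and 47.6 FPKM in HFD. The libraries of the 2 diets were fully separated in each tissue, and the tissue difference was 2.17 ± 0.28 (limma, adjusted p = 0.00485). Rxrg encodes the gamma member of the retinoid X receptors, which pair with PPAR and other nuclear receptors. It stood at 6.86, 8.34 and 11 FPKM in GT adipose tissue, against 4.58, 3.5 and 3.05 FPKM in HFD adipose tissue, and at 4.36, 3.11 and 3.10 FPKM in GT liver, against 5.90, 5.40 and 7.48 FPKM in HFD liver. Its difference was 1.72 ± 0.27 (limma, adjusted p = 0.00736), at low FPKM in both tissues.

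Csad, the enzyme that makes hypotaurine on the way to taurine, had 63.2, 71.2 and 80.4 FPKM in GT adipose tissue, against 37.7, 35.2 and 29.1 FPKM in HFD adipose tissue. In liver it had 54.8, 58.1 and 32.2 FPKM in GT, against 92.5, 70.3 and 88.0 FPKM in HFD. Liver GT 3 was the lowest of the liver libraries, and the groups did not overlap in either tissue. The tissue difference of Csad was 1.87 ± 0.30 (limma, adjusted p = 0.00772). Ifi27l2a, an interferon-induced mitochondrial and nuclear envelope protein, was an abundant transcript in fat, at 1764, 2141 and 1456 FPKM in GT and 801, 626 and 658 FPKM in HFD. It was sparse in liver, at 7.82, 5.11 and 10.8 FPKM in GT and 14.6, 26.8 and 18.5 FPKM in HFD. The direction was opposite although the levels differed widely between the tissues, and the difference was 2.60 ± 0.36 (limma, adjusted p = 0.00498). Col4a2, a chain of basement membrane collagen, showed the same pattern at a smaller size, with 297, 345 and 327 FPKM in GT fat, 228, 224 and 237 FPKM in HFD fat, 2.01, 1.77 and 1.75 FPKM in GT liver and 3.12, 2.99 and 2.85 FPKM in HFD liver. The rule for naming genes also picked Art3, Rufy4, Pcbd1, Inca1 and Crip2, with tissue differences from 1.45 to 1.74.

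The reverse pattern, lower in GT adipose tissue and higher in GT liver, held 5 genes, of which 4 have a symbol. Fn1, fibronectin of the extracellular matrix and of plasma, stood at 79.0, 80.8 and 60.4 FPKM in GT adipose tissue, against 152, 126 and 128 FPKM in HFD adipose tissue. In liver it stood at 127, 134 and 95 FPKM in GT, against 82.4, 69.2 and 82.4 FPKM in HFD. The tissue difference was -1.46 ± 0.24 (limma, adjusted p = 0.00841). Map2k6, the kinase that activates p38, had 2.54, 2.13 and 1.61 FPKM in GT fat, 3.86, 3.57 and 3.79 FPKM in HFD fat, 4.06, 3.28 and 3.04 FPKM in GT liver and 1.79, 2.22 and 1.41 FPKM in HFD liver. It thus stood higher in fat than in liver on HFD and lower in fat than in liver on GT. Slc9a3r1, a scaffold of apical membrane transporters, and Spred1, an inhibitor of Ras signalling, had tissue differences of -1.56 ± 0.28 and -1.22 ± 0.22 (limma, adjusted p = 0.0102 for each).

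**Figure D2:**
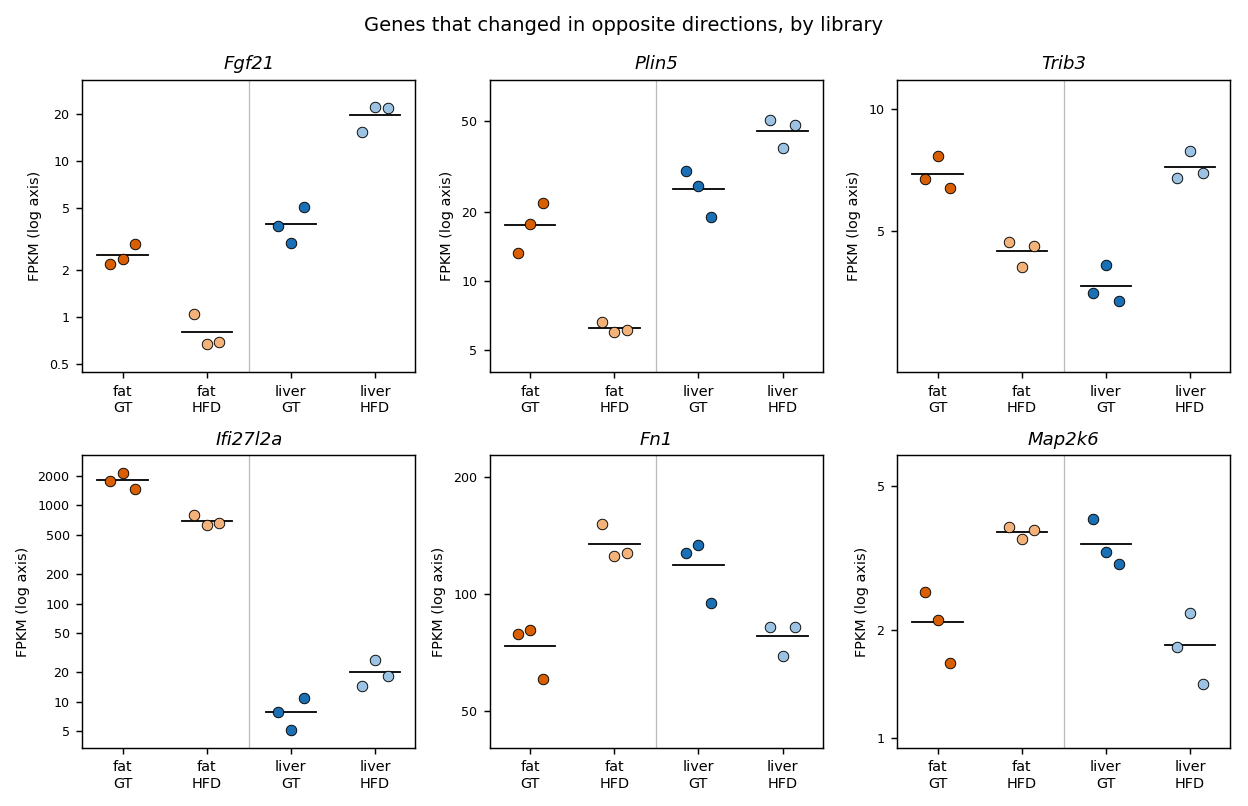
FPKM (log axis) of 6 genes of opposite directions in each of 12 libraries, with GT left of HFD in each tissue, 1 point for each library and a line at the mean of 3 libraries. In Fgf21, Plin5, Trib3 and Ifi27l2a the GT points lie above the HFD points in fat and below them in liver, and in Fn1 and Map2k6 the order is turned round.

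In adipose tissue alone, 50 genes rose and 37 fell. Alone means that the liver change did not pass, not that liver did not move. Cyp2e1, a cytochrome P450 that oxidises ethanol, acetone and fatty acids, stood at 240, 557 and 795 FPKM in GT adipose tissue, against 106, 111 and 65.3 FPKM in HFD adipose tissue. Liver, where it is most abundant, had 8954, 8983 and 5571 FPKM in GT and 7481, 6038 and 5761 FPKM in HFD, so the liver groups overlapped. The adipose change was 2.36 ± 0.36, and the tissue difference of 2.1 ± 0.51 passed (limma, adjusted p = 0.0366) but lasted through only 5 of the 12 fits with 1 library left out. The other 5 hepatocyte markers stood at 5.53 FPKM or less in the GT adipose libraries and at 4.94 FPKM or less in the HFD ones.

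Gpat3, which adds the first acyl chain in triglyceride synthesis, had 29.5, 41.4 and 61.9 FPKM in GT adipose tissue, against 14.3, 14.9 and 12.4 FPKM in HFD adipose tissue, and a tissue difference of 1.94 ± 0.46 (limma, adjusted p = 0.0326). Car3, the carbonic anhydrase that is abundant in adipocytes and liver, had 5526, 8244 and 10713 FPKM in GT fat, against 3013, 2836 and 2347 FPKM in HFD fat. Its liver values, 3069, 2462 and 2572 FPKM in GT and 3005, 2333 and 2291 FPKM in HFD, overlapped. So the groups were apart in fat and mixed in liver. The tissue difference of Car3 was 1.44 ± 0.32 (limma, adjusted p = 0.0273). Agt, which encodes angiotensinogen and has liver as its main source in the blood, had 22.9, 46.9 and 62.3 FPKM in GT fat and 15.4, 14.7 and 8.31 FPKM in HFD fat, with overlapping liver groups and a difference of 1.89 ± 0.44 (limma, adjusted p = 0.0305). In these genes adipose GT 3 was the highest of the GT libraries and adipose GT 1 the lowest. Nr1d1, the clock repressor REV-ERB alpha, had 37.9, 44.3 and 55.4 FPKM in GT fat and 27.1, 25.5 and 15.6 FPKM in HFD fat, with an adipose change of 1.00 ± 0.25, a liver change of -0.63 ± 0.25 and a tissue difference of 1.64 ± 0.35 (limma, adjusted p = 0.0241). Gpat3, Car3, Agt and Nr1d1 passed in 6, 5, 5 and 7 of the 12 fits with 1 library left out.

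Of the genes that fell in adipose tissue alone, Wee1 passed in all 12 of those fits. Wee1, a kinase that holds cells before mitosis, stood at 2.34, 2.09 and 2.25 FPKM in GT adipose tissue, against 5.46, 5.39 and 6.86 FPKM in HFD adipose tissue. In liver it stood at 3.84, 4.29 and 1.47 FPKM in GT and at 1.75, 0.632 and 1.46 FPKM in HFD, where liver GT 3 fell among the HFD libraries. The tissue difference was -1.93 ± 0.37 (limma, adjusted p = 0.0134).

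Dnmt3a, a DNA methyltransferase, stood at 45.2, 32.7 and 17.2 FPKM in GT adipose tissue, against 67.0, 79.3 and 106 FPKM in HFD adipose tissue, with a liver change of 0.20 ± 0.28. Its tissue difference was -1.66 ± 0.39 (limma, adjusted p = 0.0319). Enpp1, an ectoenzyme that makes pyrophosphate and binds the insulin receptor, had 1.58, 1.58 and 0.968 FPKM in GT fat and 3.28, 7.38 and 4.07 FPKM in HFD fat, and a tissue difference of -1.48 ± 0.35 (limma, adjusted p = 0.0337). Slc25a13, the mitochondrial carrier citrin, had 4.37, 3.78 and 1.64 FPKM in GT fat and 8.69, 8.39 and 11.1 FPKM in HFD fat. These 3 genes were separated by diet in fat only, and their differences passed in 6, 4 and 2 of the 12 fits with 1 library left out. The rule also named Rtl8c, Myh14, Smoc1 and Lhx6 as risers, with differences from 1.34 to 1.53, and Zranb3, Stap1, Cadm1, Dlg3 and Sel1l3 among those that fell, with differences from -2.52 to -1.42.

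In liver alone, 59 genes rose and 183 fell. The order of the 242 of liver alone and the 87 of adipose tissue alone turned round with no filter on low values (173 and 224), with array weights (139 and 201) and, narrowly, without adipose GT 1 (147 and 148). Gdf15, a cytokine released under cell stress that curbs appetite through the brain stem, stood at 7.31, 3.31 and 3.96 FPKM in GT liver, against 37.9, 26.0 and 25.8 FPKM in HFD liver. In fat it stood at 3.87, 2.74 and 2.48 FPKM in GT and at 5.00, 2.97 and 4.43 FPKM in HFD. The liver groups were far apart and the adipose groups overlapped. Its tissue difference was 2.09 ± 0.35 (limma, adjusted p = 0.00844).

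Fabp4, the fatty acid carrier that is the hallmark of adipocytes and also serves macrophages and endothelium, stood at 10.9, 5.49 and 10.0 FPKM in GT liver, against 35.7, 30.2 and 36.7 FPKM in HFD liver. Fat held it at 17589, 17492 and 17367 FPKM in GT and 14495, 13621 and 12038 FPKM in HFD, an adipose change of 0.39 ± 0.20 that did not pass. The tissue difference of Fabp4 was 2.28 ± 0.28 (limma, adjusted p = 0.00483). Adipoq stood at 1.4 FPKM in liver HFD 1 and at 0.174 FPKM or less in the other livers, and Lep, Plin1 and Retn were also highest in liver HFD 1. Without that library the tissue difference of Fabp4 was 2.24 (limma, adjusted p = 0.00602). A sum of 6 macrophage markers ran from 7.21 to 11.3 FPKM in GT liver, against 13.9 to 23.2 FPKM in HFD liver. Of these markers, Adgre1 and Csf1r overlapped between the diets in liver. A sum of 5 Kupffer cell markers overlapped too, at 68.1, 40.4 and 43.8 FPKM in GT liver and 65.7, 78.2 and 71.7 FPKM in HFD liver. The part of all these markers in the change of Fabp4 was not tested. Lpl, lipoprotein lipase, had 3.21, 1.60 and 2.03 FPKM in GT liver and 4.59, 5.57 and 5.84 FPKM in HFD liver, and its difference of 1.34 ± 0.31 (limma, adjusted p = 0.0289) passed in 5 of the 12 fits with 1 library left out.

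Sparc, a collagen-binding matrix protein, stood at 12.5, 10.2 and 8.67 FPKM in GT liver, against 23.8, 29.8 and 36 FPKM in HFD liver, and at 3464, 4432 and 4773 FPKM in GT fat, against 2456, 2486 and 2761 FPKM in HFD fat. Here too the groups were apart in both tissues, though the adipose change of 0.71 ± 0.18 missed the threshold (limma, adjusted p = 0.053). Gsn, the actin-severing protein gelsolin, had 3.06, 2.75 and 3.14 FPKM in GT liver and 9.18, 10.5 and 14.1 FPKM in HFD liver. Sparc and Gsn each had a tissue difference of 2.13 (limma, adjusted p = 0.00476 for each), and both passed in all 12 fits with 1 library left out. S100a11, a calcium-binding protein, had 9.98, 5.84 and 13.5 FPKM in GT liver and 20.8, 50.4 and 55.1 FPKM in HFD liver.

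Gpx4, which reduces lipid peroxides and guards against ferroptosis, stood at 233, 189 and 181 FPKM in GT liver, against 391, 538 and 439 FPKM in HFD liver. In fat it stood at 441, 448 and 479 FPKM in GT and 402, 330 and 350 FPKM in HFD. Its tissue difference was 1.51 ± 0.22 (limma, adjusted p = 0.0065). Mgst3, a microsomal glutathione transferase, had 9.14, 6.72 and 9.0 FPKM in GT liver and 13.0, 35.8 and 30.6 FPKM in HFD liver, with liver HFD 1 well under the other HFD livers. Orm3, an acute phase orosomucoid, had 2.42, 1.13 and 1.41 FPKM in GT liver and 6.00, 6.03 and 7.07 FPKM in HFD liver, and reads shared with the near-identical Orm1 and Orm2 make its value uncertain. Adamtsl2, a secreted protein related to the ADAMTS proteases, had a difference of 2.30 ± 0.43 (limma, adjusted p = 0.0133), with an adipose change of 1.16 ± 0.30 that did not pass. Cystm1 and Fam89a, also named by the rule, had differences of 2.15 and 1.85.

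Among risers in liver alone, Egfr, the receptor of epidermal growth factor, stood at 34.8, 39.8 and 111 FPKM in GT liver, against 18.1, 10.9 and 8.42 FPKM in HFD liver. Liver GT 3 stood far above the other GT livers. Its tissue difference was -2.34 ± 0.51 (limma, adjusted p = 0.0257) and passed in 8 of the 12 fits with 1 library left out. Tk1, the thymidine kinase of dividing cells, had 20.6, 22.5 and 32.8 FPKM in GT liver and 10.9, 13.3 and 8.40 FPKM in HFD liver. In fat Tk1 went the other way, at 11.2, 7.45 and 4.09 FPKM in GT and 16.0, 13.0 and 14.9 FPKM in HFD, an adipose change of -0.95 ± 0.27 that did not pass (limma, adjusted p = 0.072). The tissue difference of Tk1 was -2.09 ± 0.39 (limma, adjusted p = 0.0132). Gpcpd1, an enzyme of glycerophosphocholine breakdown, had 69.7, 86.8 and 62.2 FPKM in GT liver and 40.5, 26.7 and 27.4 FPKM in HFD liver, with overlapping groups in fat. The rule also named Apol7d, Nrep, Zfp871, Ngef, Lmbrd2 and Adap2, with differences from -2.21 to -1.34.

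**Figure D3:**
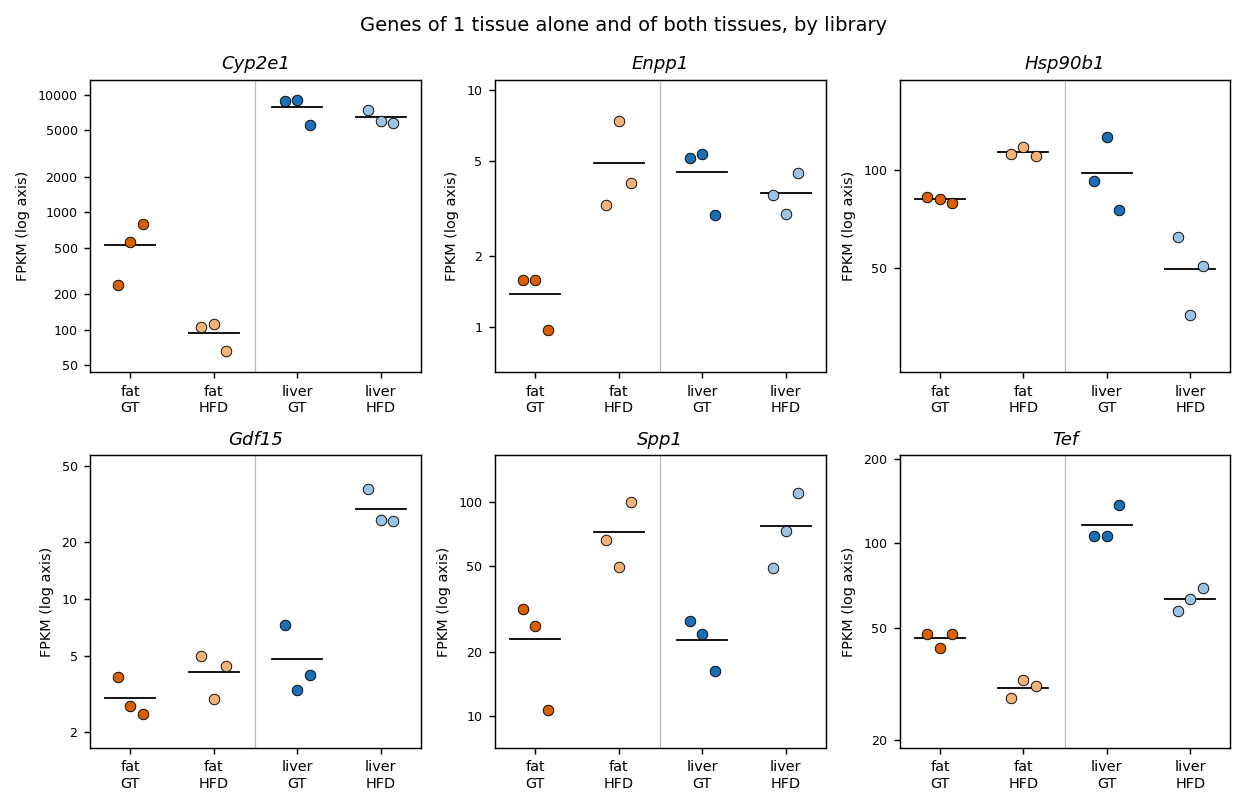
FPKM (log axis) of 6 genes in each of 12 libraries, with GT left of HFD in each tissue, 1 point for each library and a line at the mean of 3 libraries. Cyp2e1 and Enpp1 are separated by diet in fat only, Gdf15 in liver only, Hsp90b1 in opposite order in the 2 tissues, and Spp1 and Tef in the same order in both.

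Both tissues alike is the pattern of 45 genes, and 3 more, B430218F22Rik, Rnaset2a and Rps2-ps10, moved in the same direction by different amounts. Of these 48, 7 rose and 41 fell. A missed threshold does not show that changes are equal: the tissue differences of the 45 ran from -1.05 to 0.53, the half-width of their 95% intervals had a median of 0.53, and 35 of the 45 had the whole interval between -1 and 1.

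Ccl2, the chemokine that draws monocytes into obese fat, stood at 21.6, 21.7 and 12.6 FPKM in GT adipose tissue, against 39.0, 34.3 and 49.5 FPKM in HFD adipose tissue, and at 0.950, 0.549 and 0.154 FPKM in GT liver, against 2.48, 3.42 and 2.09 FPKM in HFD liver. In liver Ccl2 met the filter of 1 FPKM through the HFD libraries only, which favours a fall there. The groups were apart in both tissues, with changes of -1.12 ± 0.24 and -1.26 ± 0.24 and a difference of 0.14, with a 95% interval from -0.59 to 0.87. Mean Ccl2 was 18.6 FPKM in GT fat against 40.9 FPKM in HFD fat, and 0.551 FPKM in GT liver against 2.66 FPKM in HFD liver. At such low FPKM the added 1 shrinks the liver change, so the near match holds on this scale only. Spp1, osteopontin, a matrix protein secreted by macrophages among others, had 31.6, 26.4 and 10.7 FPKM in GT fat and 66.3, 49.7 and 99.8 FPKM in HFD fat. In liver Spp1 had 27.9, 24.1 and 16.2 FPKM in GT and 48.9, 73.1 and 109 FPKM in HFD. It changed by -1.68 ± 0.39 in each tissue, with an interval of the difference from -1.18 to 1.17, the width of which leaves room for unequal changes.

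Jund, an AP-1 transcription factor, stood at 11.7, 7.18 and 7.66 FPKM in GT adipose tissue, against 23.6, 18.3 and 24.4 FPKM in HFD adipose tissue, and at 4.95, 4.10 and 5.60 FPKM in GT liver, against 14.0, 12.8 and 14.4 FPKM in HFD liver. It changed by -1.25 ± 0.18 in fat and -1.33 ± 0.18 in liver, a near match with an interval of the difference from -0.46 to 0.63. Emp3, a membrane protein of leukocytes, had changes of -1.16 ± 0.28 and -1.20 ± 0.28, and H2afj, a histone H2A variant, -1.66 ± 0.28 and -1.64 ± 0.28. Mean Emp3 was 79.9 FPKM in GT fat against 170 FPKM in HFD fat. In liver its means were 1.01 FPKM in GT and 3.67 FPKM in HFD, where the added 1 shrinks the change. Crip1 and Ppp1r14a, which inhibits myosin phosphatase, belong to the same group, with differences of 0.36 and 0.00. Scand1, a small SCAN-domain protein, changed by -3.09 ± 0.32 in fat and -2.85 ± 0.32 in liver, with 1.64, 0.190 and 0.552 FPKM in GT fat and 16.0, 10.7 and 14.0 FPKM in HFD fat. Rnaset2a and Rnaset2b, near-identical copies of a lysosomal ribonuclease gene, fell by 2.34 and 2.80 in fat and by 1.14 and 1.75 in liver. Counting can split reads between such copies, so their single values are uncertain. In fat Rnaset2b met the filter of 1 FPKM through the HFD libraries only, which favours a fall there.

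The genes that rose in both tissues were few. Tef, a clock-controlled transcription factor of the PAR bZIP family, stood at 47.4, 42.4 and 47.6 FPKM in GT adipose tissue, against 28.1, 32.5 and 31.0 FPKM in HFD adipose tissue, and at 106, 106 and 137 FPKM in GT liver, against 57.3, 63.4 and 69.5 FPKM in HFD liver. All GT libraries lay above all HFD libraries in each tissue, and the difference of -0.29 had a 95% interval from -0.72 to 0.14. Igfals, the acid-labile subunit that carries IGF in blood, changed by 0.89 ± 0.16 in fat and 0.74 ± 0.16 in liver. Ivd, an enzyme of leucine breakdown, changed by 0.82 ± 0.15 and 0.63 ± 0.15, and Atf6b, an endoplasmic reticulum stress sensor, by 0.60 ± 0.15 and 0.53 ± 0.15. Plekha7 was the remaining riser that the rule named.

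Gene lists show how the patterns were shared out, and each list is described by its counts and medians beside those of all tested genes, whose median change was -0.10 in adipose tissue and -0.04 in liver. In the list of adipocyte identity, 16 of 25 genes were tested. The difference was positive in 6 of the 16 and negative in 0, set against 3.24% and 1.7% of all genes, and the list median was 0.87 in fat and -0.27 in liver. The 6 were Fabp4, Nnat, Plin4, Car3, Lpl and Agt. Fabp4 passed in all 12 fits with 1 library left out, Nnat and Plin4 in 7, and Car3, Lpl and Agt in 5. With equal FPKM totals 4 of the 16 were positive, and with quantile scaling within each tissue 3 were. Nnat, an imprinted gene of the endoplasmic reticulum membrane, had 573, 679 and 972 FPKM in GT fat and 371, 313 and 255 FPKM in HFD fat, and lay between 0.278 and 1.49 FPKM in the liver libraries. A sum of 6 adipocyte markers stood at 6156, 7629 and 9381 FPKM in GT fat, against 4647, 4636 and 4670 FPKM in HFD fat, and a sum of 6 macrophage markers at 1780, 1451 and 572 FPKM, against 3107, 2504 and 3681 FPKM. Mast cell markers summed to between 7.2 and 8.58 FPKM in GT fat, against 24.5 to 42.6 FPKM in HFD fat. In whole tissue, fewer cells of a type and less RNA per cell cannot be told apart, and the part of these sums in the adipose changes was not tested.

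Triglyceride synthesis and lipid droplet genes behaved likewise, with a positive difference in 7 of 21 tested genes, a negative one in 0, and medians of 0.51 in fat and -0.39 in liver. The 7 were Plin5, G0s2, Bscl2, Plin4, Gpat3, Mogat1 and Agpat2. G0s2, an inhibitor of the triglyceride lipase ATGL, stood at 272, 186 and 347 FPKM in GT liver, against 549, 625 and 402 FPKM in HFD liver, and at 239, 256 and 272 FPKM in GT fat, against 186, 163 and 161 FPKM in HFD fat. Its tissue difference was 1.57 ± 0.30 (limma, adjusted p = 0.0141) and passed in all 12 fits with 1 library left out. Plin4, another perilipin, had a difference of 2.19 ± 0.48 (limma, adjusted p = 0.0261) while neither tissue passed alone. With equal FPKM totals 3 of the 21 genes were positive, and with a correction for transcript length and GC content 5 were.

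Fatty acid synthesis had a positive difference in 3 of 16 tested genes, Acacb, Elovl5 and Scd1. Scd1, the desaturase that makes oleate, is the member with the most transcript. It stood at 7249, 8867 and 12114 FPKM in GT adipose tissue, against 3389, 4571 and 3545 FPKM in HFD adipose tissue, and at 1806, 658 and 301 FPKM in GT liver, against 2100, 1238 and 1958 FPKM in HFD liver. In fat the groups were apart, and in liver GT 1 lay within the HFD range. The difference of 2.55 ± 0.67 was the only one of its 3 tests to pass (limma, adjusted p = 0.0463), and it passed in 2 of the 12 fits with 1 library left out. Acacb, the acetyl-CoA carboxylase that controls fatty acid entry into mitochondria, had 24.4, 27 and 33.3 FPKM in GT fat and 16.0, 17.4 and 14.5 FPKM in HFD fat, with a difference of 1.27 ± 0.23 (limma, adjusted p = 0.0112) that passed in all 12. Its GT livers, at 5.73, 3.60 and 4.30 FPKM, lay below its HFD livers, at 6.36, 6.56 and 7.17 FPKM, though the liver change did not pass. Elovl5, an elongase of polyunsaturated fatty acids, had 254, 206 and 126 FPKM in GT liver and 408, 370 and 542 FPKM in HFD liver. Fasn and Acaca, the core enzymes of lipogenesis, did not pass in either tissue, with differences of 0.90 ± 0.35 and 0.43 ± 0.31. The regulators Srebf1, Pparg and Ppara and the fatty acid transporter Cd36 did not pass either, with differences of 0.19, 0.63, -0.05 and 0.43.

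In fatty acid oxidation the difference was positive in 3 of 27 tested genes, Eci1, Pdk4 and Ech1, and negative in 0. Pdk4, the kinase that shuts pyruvate out of the citrate cycle in fasting, had 2.79, 1.10 and 2.34 FPKM in GT liver and 6.28, 5.26 and 8.77 FPKM in HFD liver, against a fat level of 98.5 to 134 FPKM in both diets. Among genes that break down branched-chain amino acids or run the citrate cycle, 3 of 30 were positive, Bckdha, Sdhc and Idh3g. These passed in 10, 2 and 2 of the 12 fits with 1 library left out, and with equal FPKM totals 0 of the 30 passed. Bckdha, a subunit of the complex that commits branched-chain amino acids to breakdown, had 86.3, 102 and 108 FPKM in GT fat and 60.8, 50.3 and 58.5 FPKM in HFD fat, with a difference of 0.98 ± 0.19 (limma, adjusted p = 0.0159). Its GT livers, at 170, 160 and 153 FPKM, lay below its HFD livers, at 179, 202 and 171 FPKM, though the liver change did not pass. In glucose metabolism 2 of 17 were positive, Khk and Taldo1, and 1 was negative, the glucose transporter Slc2a1 at -0.93 ± 0.24 (limma, adjusted p = 0.0411). Khk, Taldo1 and Slc2a1 passed in 4, 2 and 2 of the 12 fits with 1 library left out. With equal FPKM totals 0 of the 17 passed. Pck1, which makes the glycerol backbone in fat and glucose in liver, rose in fat by 1.53 ± 0.32 but its difference of 1.60 ± 0.45 did not pass (limma, adjusted p = 0.0557).

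Cholesterol synthesis leaned the other way, with a median of -0.39 in fat and 0.14 in liver over 22 tested genes. The difference was negative in 3, Stard4 and Lss among them, and positive in 2, Pmvk and Hmgcs1, so members of the pathway went in both directions. Stard4, a carrier of cholesterol inside cells, stood at 19.8, 23.7 and 18.8 FPKM in GT liver, against 12.2, 11.7 and 10.4 FPKM in HFD liver, and at 5.01, 5.22 and 4.0 FPKM in GT fat, against 5.55, 8.26 and 7.84 FPKM in HFD fat. Its difference was -1.31 ± 0.23 (limma, adjusted p = 0.00959) and passed in all 12 fits with 1 library left out. Lss, lanosterol synthase, had a difference of -1.68 ± 0.44 (limma, adjusted p = 0.0482) that passed in 2 of the 12 fits. With equal FPKM totals, 5 of the 22 were negative and 0 positive.

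Endoplasmic reticulum chaperones and stress genes held calls of both signs. Of 28 tested, 6 had a negative difference and 3 a positive one, with medians of -0.17 in fat and 0.44 in liver. The 3 positive were Fgf21, Trib3 and Gdf15, which are known to be induced through ATF4 and CHOP, and the 6 negative were Pdia3, Hsp90b1, Hspa5, Dnajb11, Xbp1 and Ern1, which belong to protein folding and to the IRE1 and XBP1 arm. Hsp90b1, the chaperone GRP94, stood at 92.7, 127 and 75.6 FPKM in GT liver, against 62.4, 35.8 and 50.6 FPKM in HFD liver, and at 82.7, 81.4 and 79.4 FPKM in GT fat, against 112, 118 and 111 FPKM in HFD fat. The adipose groups were apart as well, though the adipose change of -0.48 ± 0.20 did not pass (limma, adjusted p = 0.19). That SE is pooled over both tissues and is not the spread of the adipose libraries. The difference was -1.46 ± 0.29 (limma, adjusted p = 0.0163). Hspa5, the chaperone BiP, had 295, 339 and 437 FPKM in GT liver and 252, 195 and 181 FPKM in HFD liver, and Xbp1, the factor that drives chaperone genes, 141, 171 and 181 FPKM in GT liver and 94.2, 83.9 and 78.6 FPKM in HFD liver. Their differences were -1.10 ± 0.24 and -0.87 ± 0.22 (limma, adjusted p = 0.0244 and 0.0388), and they passed in 7 and 4 of the 12 fits with 1 library left out. The counts were 3 positive and 9 negative with equal FPKM totals and 4 positive and 7 negative with the correction for transcript length and GC content.

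Antioxidant and glutathione genes had a positive difference in 7 of 32 tested genes and a negative one in 0, with medians of 0.05 in fat and -0.41 in liver. The 7 were Gpx4, Mgst1, Mgst3, Gstt1, Gstm2, Gstm4 and Gstm1, of which the Gstm genes are close paralogs that may share reads. Mgst1 passed in fat and not in liver, at 667, 732 and 777 FPKM in GT fat and 458, 476 and 416 FPKM in HFD fat, with a difference of 1.06 ± 0.20 (limma, adjusted p = 0.0133). Its GT livers, at 4758, 4558 and 4871 FPKM, all lay below its HFD livers, at 6133, 6655 and 5605 FPKM. That liver change of -0.37 ± 0.14 did not pass (limma, adjusted p = 0.115). The list's other positive genes fell in liver or passed in the difference only. With the correction for transcript length and GC content, 3 of the 32 were positive.

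Respiratory chain and ATP synthase subunits were tested in 39 of 40 cases. Of these, 19 fell in liver and 3 in fat, beside 7.22% and 2.05% of all genes, while 0 rose in either tissue. The difference was positive in 6 and negative in 1, with medians of 0.08 in fat and -0.56 in liver. Ndufb8, a subunit of complex I, stood at 123, 114 and 113 FPKM in GT liver, against 182, 207 and 164 FPKM in HFD liver, and at 169, 164 and 166 FPKM in GT fat, against 133, 117 and 126 FPKM in HFD fat, with a difference of 1.06 ± 0.18 (limma, adjusted p = 0.00903). The negative difference was that of Cox5b, a subunit of complex IV, at 59.7, 38.1 and 46.0 FPKM in GT fat and 176, 168 and 156 FPKM in HFD fat. It was -1.23 ± 0.27 (limma, adjusted p = 0.0263). All GT livers also lay below all HFD livers for Cox5b, a liver change of -0.57 ± 0.19 that did not pass (limma, adjusted p = 0.0816). Among cytosolic ribosomal proteins 17 of 45 fell in liver and 2 in fat, set against the same shares of all genes. The difference was positive in 1 of 45, Rps19, beside 3.24% of all genes.

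These 2 lists hold short transcripts, and the liver change moved with transcript length. The median liver change was -0.31 in the shortest of 4 equal-sized length classes, from 151 to 2143 bases, and 0.15 in the longest, from 4712 bases up, against -0.05 and -0.13 in fat. Of the genes that fell in liver, 434 lay in the shortest length class and 55 in the longest. The positive tissue differences numbered 180 in the shortest length class and 23 in the longest, and the negative ones 17 and 77. After a correction for transcript length and GC content within each tissue, chosen after seeing the data, 344 genes passed the tissue difference, of which 240 were among the 477. In that fit 7 respiratory chain genes and 3 ribosomal protein genes fell in liver, and the difference was positive in 2 and 0 of them. Of the 28 genes of opposite directions 12 stayed in that pattern, of 242 of liver alone 101, of 87 of adipose tissue alone 43, and of 48 of the same direction 29.

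**Figure D4:**
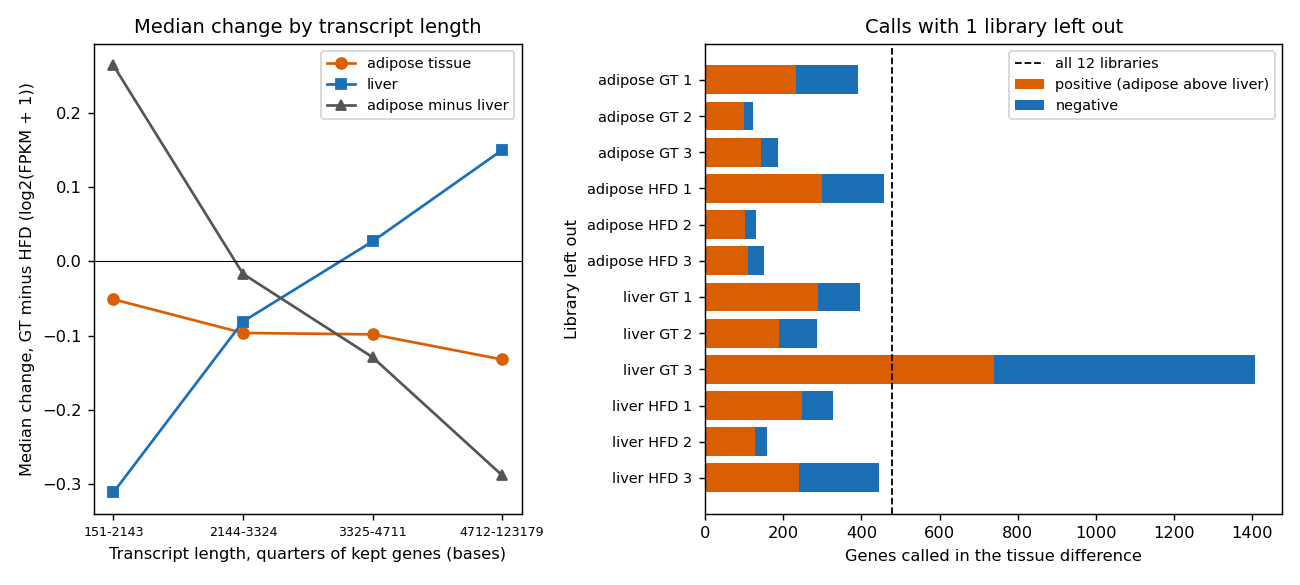
Left, the median change of kept genes in each of 4 equal-sized classes of transcript length (bases) in fat, in liver and as the difference, on the log2(FPKM + 1) scale; right, the number of genes called in the tissue difference with each library left out, positive and negative calls stacked. The liver line climbs from -0.31 to 0.15 while the adipose line stays between -0.05 and -0.13, and the count reaches 1407 without liver GT 3 and 123 without adipose GT 2, against 477 with all libraries (dashed line).

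Of 23 matrix genes tested, 16 fell in liver and 3 in fat, beside 7.22% and 2.05% of all genes, the medians were -0.87 in liver and -0.34 in fat, and the difference was positive in 5, Sparc, Col4a2, Lgals1, Serpinh1 and Col4a1, and negative in 1, Fn1. With the correction for transcript length and GC content the difference was positive in 6 and negative in 1, and 16 fell in liver.

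Macrophage genes had negative medians in both tissues. Of 23 tested, 5 fell in fat and 5 in liver, the medians were -0.87 in fat and -0.81 in liver, and 1 had a difference that passed, Lpl, which adipocytes also make. The counts that fell were 6 in fat and 1 in liver with equal FPKM totals, 6 and 2 with quantile scaling, and 9 and 2 with the correction for transcript length and GC content, and both medians stayed negative. Adgre1, the macrophage marker F4/80, stood at 136, 125 and 57.4 FPKM in GT fat, against 213, 195 and 259 FPKM in HFD fat, and at 1.53, 0.790 and 0.453 FPKM in GT liver, against 1.58, 0.876 and 1.21 FPKM in HFD liver, so its groups overlapped in liver. Its tissue difference of -0.91 ± 0.41 did not pass (limma, adjusted p = 0.196), with an interval from -1.80 to -0.03. Cd68, a lysosomal protein of macrophages, had changes of -1.31 ± 0.36 and -1.17 ± 0.36, neither of which passed. Lysosome genes had a difference that passed in 0 of 29, with medians of -0.52 in fat and -0.41 in liver, and immediate early genes in 0 of 16, with medians of -0.48 and -0.89. These are counts by limma at the adjusted threshold, and with an unadjusted p under 0.05 5 of the 29 and 3 of the 16 had a difference. Chemokines and cytokines, antigen presentation, metal handling and urea cycle genes likewise had 0 tested genes with a difference that passed, of 16, 16, 20 and 16, and 3, 2, 4 and 5 at an unadjusted p under 0.05. Over all tested genes, 2326 of 9663 had an unadjusted p under 0.05 (limma) and 4.94% passed at the adjusted threshold. Counts of 0 in lists of this size are near that share and do not set these genes apart.

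Cell cycle and DNA replication genes had a median of -0.64 in fat and 0.01 in liver. Of 19 tested, Tk1 had a negative difference and Cdkn1a, the inhibitor p21, a positive one. Cdkn1a stood at 1.23, 0.571 and 0.560 FPKM in GT liver, against 5.47, 4.84 and 12.5 FPKM in HFD liver, and its difference was 1.67 ± 0.39 (limma, adjusted p = 0.0313). Clock genes had a positive difference in Nr1d1 and a negative one in Bhlhe41, a repressor of clock transcription, at -0.94 ± 0.25 (limma, adjusted p = 0.0463), among 18 tested, while 2 rose in fat and 4 in liver. The difference of Bhlhe41 passed in 3 of the 12 fits with 1 library left out, and that of Cdkn1a in 6. The Tef promoter is shown because Tef rose in both tissues and is known to be driven through E-boxes. It is the 250 bases before a RefSeq start site at chr15:81802423-81802672 on the plus strand of GRCm38.p6, with CACGTG in capitals, starting 127 bases before the start site, a match that 10.5% of tested genes with a promoter have.
Tef: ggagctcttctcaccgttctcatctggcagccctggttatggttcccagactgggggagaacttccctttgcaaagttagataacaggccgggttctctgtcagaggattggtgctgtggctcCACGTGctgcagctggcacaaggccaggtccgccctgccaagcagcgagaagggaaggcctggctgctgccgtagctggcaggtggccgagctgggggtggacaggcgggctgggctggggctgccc

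Acute phase and complement genes had a positive difference in 2 of 20, Orm1 and Cfb, and a negative one in 1. Cfd, the serine protease adipsin, which adipocytes secrete, stood at 800, 1204 and 1668 FPKM in GT fat, against 337, 349 and 251 FPKM in HFD fat, and at 191, 131 and 202 FPKM in GT liver, against 193, 162 and 54.7 FPKM in HFD liver. It rose in fat by 1.92 ± 0.39, but its tissue difference of 1.4 ± 0.56 did not pass (limma, adjusted p = 0.146), with a 95% interval from 0.20 to 2.61. In insulin signalling Igfbp3 had a positive difference and Socs3, the cytokine feedback inhibitor, and Grb14 negative ones, of 16 tested. Socs3 had 3.24, 2.68 and 2.33 FPKM in GT fat and 3.63, 4.05 and 7.87 FPKM in HFD fat, with a difference of -1.18 ± 0.30 (limma, adjusted p = 0.042) that passed in 4 of the 12 fits with 1 library left out. The difference was also positive in 2 of 9 lipolysis genes, 4 of 23 lipid transport genes, 3 of 19 endothelial genes, 2 of 27 interferon-induced genes and 2 of 12 thermogenesis genes, and negative in 0 of each. Over all tested genes 3.24% were positive and 1.7% negative, the shares for these lists as for those above. Lists share genes: Fabp4 and G0s2 of lipolysis, Fabp4 and Lpl of lipid transport and Pdk4 of thermogenesis were counted above. With equal FPKM totals 2, 1, 2, 1 and 2 genes of these lists were positive.

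**Figure D5:**
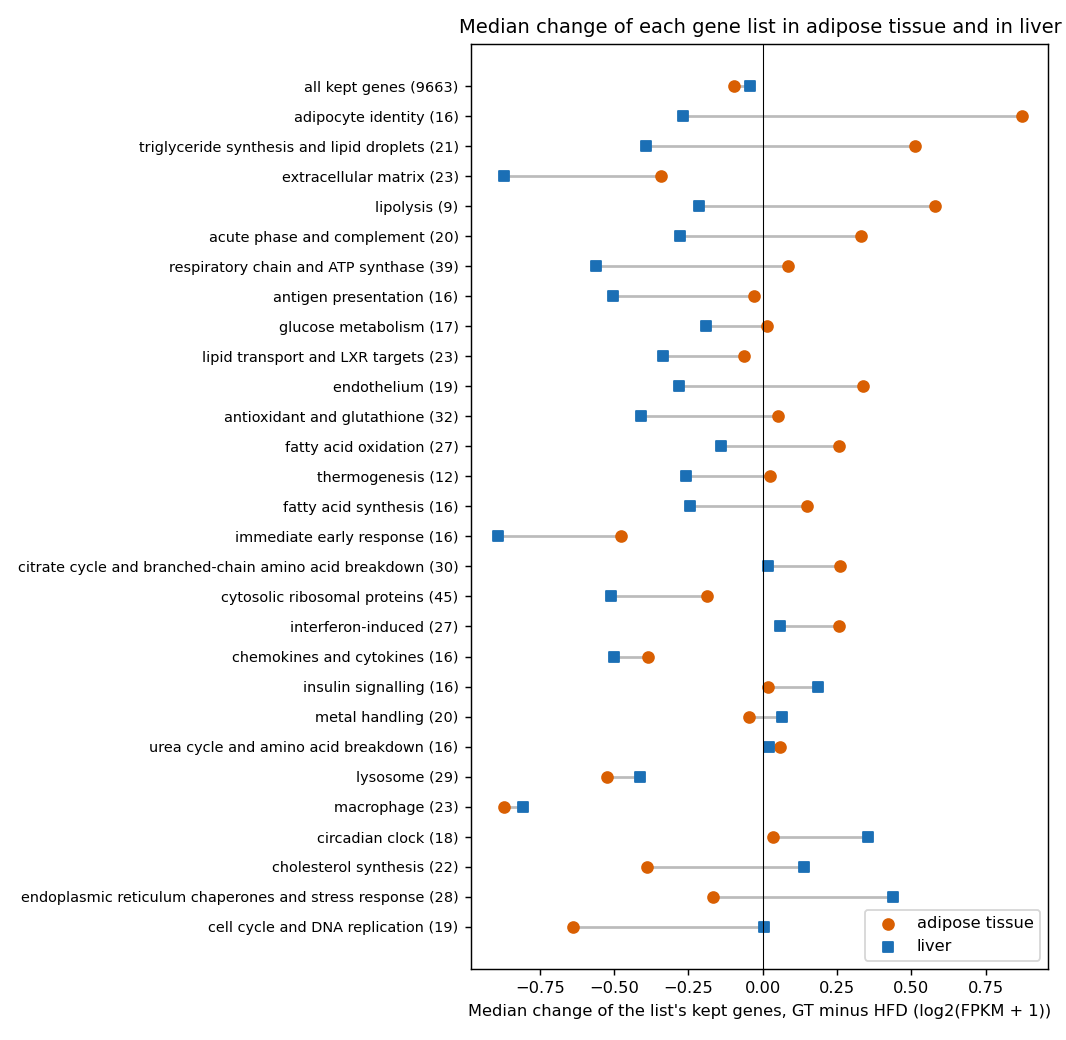
Median change of each gene list in adipose tissue (circles) and in liver (squares), GT minus HFD on the log2(FPKM + 1) scale, with the number of tested genes in parentheses and all 9663 genes at the top. Adipocyte identity shows the widest gap with adipose tissue on the right, at 0.87 and -0.27, macrophage genes lie to the left in both tissues at -0.87 and -0.81, and chaperone and stress genes have liver on the right.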

How the data were processed

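Poly(A) RNA of mouse epididymal adipose tissue and liver was sequenced. The authors deposited FPKM values per gene. STAR 2.4.0, Cufflinks 2.1.1 and CASAVA 1.8.2 are the tools listed in the submitters' processing notes; a build was not given in the sources used here. FPKM divide by library size and transcript length, so depth behind a value is unknown and no count test was possible. From the deposited FPKM, log2(FPKM + 1) was fitted with limma 3.58.1 in R 4.3.3 by group means over 12 libraries, with a variance prior that follows the mean and is robust to outlying genes. Genes needed 1 FPKM in 3 of 6 libraries of each tissue. Contrasts were the adipose change, the liver change and their difference, each adjusted by Benjamini-Hochberg over all kept genes. The script was tested on simulated data.

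A gene changed in 1 tissue alone if the difference and that tissue passed, in opposite directions if both tissues passed with unlike signs, and in the same direction if both passed with like signs. Named were up to 10 rises and 10 falls of each pattern with the largest difference (for both-tissue patterns, the largest smaller change), with no library at 0 and with groups that do not overlap, then up to 4 members of each of 28 lists by p, and 16 fixed genes, of which 13 were kept. Lep, Adipoq and Gpnmb were not kept. Other names were chosen after their values were seen, among them Hspa5, Xbp1 and the members named to account for a small count in a list. The members and the lists were chosen with earlier results of these data known. Alternatives were another added value, other filters, other scalings, a replicate block, other variance settings, other sets of libraries, single libraries left out, and, added after seeing the data, a correction for transcript length and GC content from GENCODE M21 transcripts. The labels do not say whether a replicate number links fat and liver of 1 mouse. The reported fit has no block, and the correlations of deviations of like-numbered libraries ran from -0.286 to 0.246. A few of the named genes are left out of the text.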

Additional observations from a re-analysis of the deposited data

Results flagged for a closer look

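The adipose and the liver change differed in 477 genes by the test of the difference itself, and the values below are the adipose change minus the liver change of the genes named in the text that passed it, on the log2(FPKM + 1) scale.

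Among genes of opposite directions that were higher in GT fat and lower in GT liver, the difference was 3.02 for Fgf21, 2.17 for Plin5, 1.36 for Trib3, 2.60 for Ifi27l2a, 1.72 for Rxrg, 1.87 for Csad and 0.98 for Col4a2. For those of the reverse order it was -1.46 for Fn1, -1.29 for Map2k6, -1.56 for Slc9a3r1 and -1.22 for Spred1.

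Of genes that changed in adipose tissue alone, risers had 2.1 for Cyp2e1, 1.94 for Gpat3, 1.44 for Car3, 1.89 for Agt, 1.70 for Nnat, 1.64 for Nr1d1, 1.06 for Mgst1, 1.27 for Acacb and 0.98 for Bckdha. Those that fell had -1.48 for Enpp1, -1.93 for Wee1, -1.66 for Dnmt3a, -1.70 for Slc25a13 and -1.23 for Cox5b.

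Of genes that changed in liver alone, those that fell had 2.28 for Fabp4, 2.09 for Gdf15, 2.14 for Orm3, 2.13 for Sparc, 2.13 for Gsn, 2.12 for S100a11, 2.02 for Mgst3, 2.30 for Adamtsl2, 1.34 for Lpl, 1.49 for Pdk4, 1.51 for Gpx4, 1.57 for G0s2, 1.41 for Elovl5, 1.06 for Ndufb8 and 1.67 for Cdkn1a. Risers had -2.34 for Egfr, -1.46 for Hsp90b1, -2.09 for Tk1, -1.35 for Gpcpd1, -1.10 for Hspa5, -0.87 for Xbp1, -1.31 for Stard4 and -1.68 for Lss.

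Genes that passed in the difference alone had 2.55 for Scd1 and 2.19 for Plin4, and -1.18 for Socs3, -0.93 for Slc2a1 and -0.94 for Bhlhe41. Of genes that moved in the same direction by different amounts, the value was -1.20 for Rnaset2a.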

How the results depend on the processing

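With all 12 libraries 477 genes passed in the tissue difference, 336 in adipose tissue and 890 in liver, and 87, 242, 28 and 48 changed in adipose tissue alone, in liver alone, in opposite directions and in the same direction. Among the genes described in the text, no called tissue difference changed sign under another setting, but calls were often lost. Over these genes and settings, the outcome at the threshold stayed the same in 1594 cases, a call was lost in 378 and gained in 7. The balance of calls also turned: equal FPKM totals gave 41% positive differences, against 65.6%. The order of the tissues by number of calls turned round with no filter (1135 in adipose tissue, 621 in liver), with array weights and in fits on 1 tissue. It also turned round with neither liver HFD 2 nor liver GT 3 (1174 in adipose tissue, 730 in liver). The cause of the moves below was not tested. With 0.1 added in place of 1, 196 genes passed in adipose tissue, 16 were opposite and 31 the same. With no filter on low values 1135 passed in adipose tissue and 224 changed there alone, and with a filter at 5 FPKM 202, 55 and 18 opposite. Equal FPKM totals gave 307 in the difference, 438 in liver, 134 in liver alone and 10 opposite. They gave 29.1% higher among adipose calls and 39% among liver calls, and quantile scaling 61.3% and 38.4%, against 41.1% and 21.6% as deposited.

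With a replicate block 202 genes passed in the difference and 142 in adipose tissue, 30 changed in adipose tissue alone, 124 in liver alone, 6 in opposite directions and 24 in the same, and a replicate block by diet and number gave 93 in the difference. Array weights gave 1361 in adipose tissue, 347 in liver, 201 in adipose tissue alone and 139 in liver alone. All 18 libraries in 1 fit gave 1 in the difference, 1 in adipose tissue, 20 in liver, 1 in liver alone and 0 in the other patterns. With neither adipose HFD 1 nor HFD 2 the counts were 1 in the difference, 5 in adipose tissue, 0 in adipose tissue alone, 1 in liver alone, 0 opposite and 4 the same. With neither liver HFD 2 nor liver GT 3 they were 791 in the difference, 1174 in adipose tissue, 730 in liver, 283 in adipose tissue alone, 57 opposite and 91 the same. Fits on the 6 libraries of 1 tissue gave 770 in adipose tissue and 168 in liver. The correction for transcript length and GC content gave 542 in adipose tissue, 583 in liver and 155 in liver alone.

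With 1 library left out at a time, counts ran from 123 to 1407 in the difference, 13 to 1096 in adipose tissue, 257 to 1629 in liver, 3 to 345 in adipose tissue alone, 75 to 649 in liver alone, 0 to 100 opposite and 7 to 145 the same. Where this left 2 libraries in a group, the pooled spread was used.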
